A study of Mus musculus with 6 samples.

Results

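Hematopoietic stem cells (HSC) and the lymphoid-biased multipotent progenitors called MPP4 were compared with each other in healthy bone marrow, among cells assigned to the G1 phase. The comparison took 3 single-cell libraries from PBS-injected mice and the cells that the deposited cell table places in phase G1 and in clusters 0, 1 or 2. Cells labelled MPP4 formed the first side and cells labelled HSC the other. This gave 3480 MPP4 cells and 2120 HSC cells, in all 5600 of the 16822 cells in the table, of which 12170 are PBS cells. PBS 1, PBS 2 and PBS 3 held 1988, 294 and 1198 MPP4 cells and 1141, 191 and 788 HSC cells.

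HSC sit at the top of blood formation, divide rarely and renew themselves in the bone marrow niche, where stem cell factor helps to maintain them. MPP4 lie downstream of HSC within the same lineage-negative, cKit-positive, Sca1-positive (LSK) gate and are known by the receptor Flt3 on their surface. They lose most megakaryocyte and erythroid potential and begin to transcribe lymphoid genes before any commitment to the B or T lineage. MPP2 and MPP3 are the megakaryocyte-erythroid-biased and myeloid-biased progenitors of the same gate.

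All animals were C57BL/6J mice carrying the CD45.1 allele. The PBS group received vehicle only, and the AML group, used here only for a look at the same contrast, received C1498, an AML cell line of the congenic CD45.2 type. LSK cells were sorted from lineage-depleted marrow of the femur and tibia, and libraries were made with 10x Genomics Chromium V3 chemistry. The series description gives the recipients as female mice aged 8 to 12 weeks, and marrow was taken 21 days after injection. Whether a library came from 1 mouse or from a pool is not stated in the labels or methods. With the library as a block, p-values measure how the difference between MPP4 and HSC varies across these libraries.

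The measure was the sum of UMI counts (reads collapsed to single molecules) over the cells of a side in a library. The 6 sums held 1394029 to 6963827 UMIs, and levels are given as CPM (counts scaled to a common total of 1e6) of the TMM-scaled sum, in the order PBS 1, PBS 2 and PBS 3. They are relative levels and were not compared between genes, since no length scaling was applied. Median UMIs per cell were 3026, 7048 and 3162.5 in HSC and 3294.5, 8272.5 and 3605.5 in MPP4, so MPP4 cells were deeper than HSC cells in every library. After thinning each cell to 2000 UMIs, the median number of detected genes was 1093, 992 and 985 in HSC and 1084, 984.5 and 965 in MPP4. Median S phase scores lay between -0.231 and -0.184 in HSC and between -0.214 and -0.175 in MPP4. Among the compared cells, 3 barcodes were shared by PBS 1 and PBS 3, 1 by PBS 2 and PBS 3 and 0 by PBS 1 and PBS 2.

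The classes themselves come from RNA. Each cell carries 4 module scores, which average the expression of a published signature over background genes, and its class was the highest of the 4 scores in 16822 of 16822 cells. The genes behind each score were recovered by regressing the deposited score on the expression of 11536 genes. A gap in the coefficients separated 81 HSC score genes, 50 MPP2, 37 MPP3 and 66 MPP4 score genes from the rest, with R2 values of 0.9968 to 0.9996. For the HSC score, the lowest coefficient inside the gap was 0.0107 and the highest outside it was 0.000953. Score genes helped to choose the cells, so their differences are given as a description, and each is named as a score gene. The phase calls rest on S and G2M genes in the same way. In 2171 of the 5600 cells (38.8%) the highest score led the next by less than 0.05.

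The sides differed in their clusters as well as in their class. HSC lay mostly in cluster 0, with 76.2%, 74.3% and 75.6% of cells, and only 5.08%, 4.19% and 5.20% in cluster 2. Of the MPP4 cells, 46.0%, 48.0% and 51.7% lay in cluster 2, and 25.1%, 18.4% and 24.3% in cluster 0. Cluster 1 held 18.8%, 21.5% and 19.2% of HSC and 28.9%, 33.7% and 24.0% of MPP4. Shares within a library were close in the 3 libraries for both sides.

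**Figure D1:**
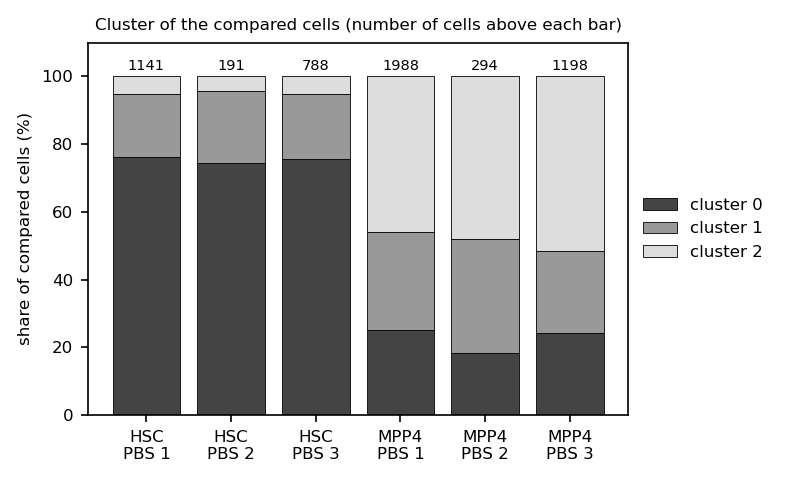
Share of the compared cells (percent, from 0) in clusters 0, 1 and 2 for each class and PBS library, with the number of cells above each bar. In all 3 HSC bars cluster 0 takes over 74%, and in all 3 MPP4 bars cluster 2 is the largest segment.

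Of 10957 genes tested with edgeR's quasi-likelihood test, with the library as a block, 2832 differed between MPP4 and HSC at a Benjamini-Hochberg adjusted p under 0.05, which is 25.8% of those tested. In MPP4, 1460 genes were higher (13.3%) and 1372 lower (12.5%). Under scaling by the plain library size the split was 1085 higher and 1624 lower, with the median of all genes shifted by -0.06 on the log2 scale. CPM ranges of the 3 HSC and 3 MPP4 sums did not overlap for 2316 genes (21.1%). Outside the class scores, 2686 of 10744 genes were called (25%), 1405 of them higher and 1281 lower in MPP4. Most changes were modest, with a median absolute log2 fold change of 0.55 among called genes. A change of at least 1 on the log2 scale was reached by 278 genes that rose and 451 that fell, so large falls were the more numerous. Without the library as a block 777 genes were called, DESeq2 called 1196 and limma-voom 2849. Leaving out PBS 3 left 1822 calls.

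**Figure D2:**
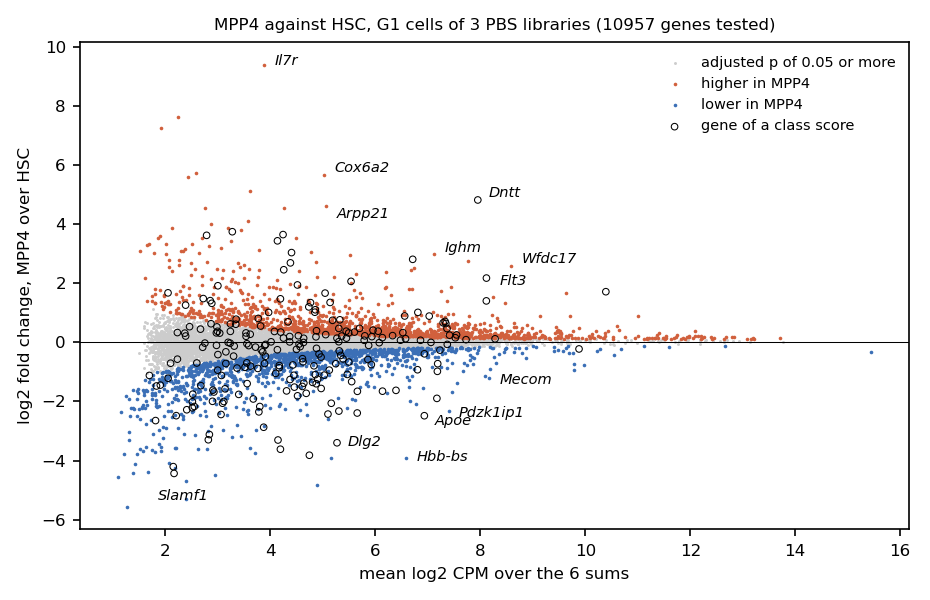
Log2 fold change of MPP4 over HSC (edgeR, vertical axis) against mean log2 CPM over the 6 sums for the 10957 genes tested, with genes called higher in red, called lower in blue, not called in grey, and genes of a class score circled in black. Il7r has 0 UMIs in all HSC sums, so its fitted height depends on the prior count. Large falls outnumber large rises, 451 against 278 beyond a log2 change of 1.

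Score genes are given first, as a description. Of 77 HSC score genes tested, 75 were lower in MPP4, 0 higher and 2 not called, with a median log2 fold change of -1.45. Of 66 MPP4 score genes, 47 were higher, 1 lower and 18 not called, with a median of 0.65. The scores of the other classes split, with 1 of 36 MPP2 score genes higher and 11 lower, and 7 of 34 MPP3 score genes higher and 4 lower. Over all 10957 genes the median was 0.01, with 13.3% called higher and 12.5% lower, the shares beside which each list count stands. For lists with 0 genes called in a direction, other calls were counted too: limma-voom and DESeq2 also gave 0 in that direction for every gene list described below, and edgeR at an unadjusted p under 0.05 gave 0 except for 1 erythroid gene higher, 1 B and plasma cell gene lower and 1 mitochondrially encoded gene higher.

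The labels were next set against class markers. Of 12 HSC markers, 11 were lower in MPP4, and 7 of the 8 that are outside the scores, while Robo4 was not called. All 11 MPP4 markers were higher, and so were all 8 of them that are outside the scores. Of 8 markers of MPP3 and myeloid cells, 6 were tested, 4 were higher in MPP4 and none was lower. Outside the scores, 2 of 4 were higher. Prtn3 and Ms4a3 were not called, and Elane and Csf1r did not pass the filter on low counts. Of 8 megakaryocyte and erythroid markers, 4 were tested and all 4 were lower, 2 of them outside the scores. Klf1, Gata1, Epor and Car1 did not pass the filter.

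Genes of HSC identity and self-renewal were lower in MPP4 almost throughout. Of the 35 listed genes, all tested, 31 fell, 1 rose and 3 were not called, with a median log2 fold change of -1.89 against 0.01 for all genes. Among the 25 that enter no class score, 22 fell and 0 rose, with a median of -1.74. Mecom, a zinc finger transcription factor needed for HSC maintenance, lay at 375, 476 and 443 CPM in HSC and at 169, 174 and 201 CPM in MPP4. The lowest HSC value was above the highest MPP4 value, and the log2 fold change was -1.22 ± 0.0563 (SE, adjusted p = 1.20e-28). Hlf, a PAR bZIP transcription factor of stem cells, lay at 264, 240.2 and 315 CPM in HSC and 180.0, 183 and 183 CPM in MPP4, a change of -0.60 ± 0.0601 (SE, adjusted p = 5.04e-13). Its MPP4 values lay within 3 CPM of each other, below all 3 HSC values. Procr, which encodes the endothelial protein C receptor found on HSC, was at 45.96, 86.4 and 27.8 CPM in HSC and 20.9, 20.8 and 13.6 CPM in MPP4, or -1.35 ± 0.130 (SE, adjusted p = 9.42e-14). PBS 2 was high among the HSC values, and the groups still did not overlap.

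Other genes of this list showed a wide span of sizes. Sult1a1, a phenol sulfotransferase, fell by 3.73 on the log2 scale, from 30.2 ± 10.5 to 1.70 ± 1.59 CPM (SD, n = 3). Hoxb5 and Tcf15, both transcription factors used to mark long-term HSC, were at log2 fold changes of -3.11 and -3.17, and Fgd5 was at -2.46. Prdm16, Gata2 and Meis1, transcription factors of the HSC program, were at -1.47, -1.78 and -0.69. At the small end, Gfi1b fell by 0.53 and Gimap6 by 0.32. Erg, an ETS factor, was not called, at -0.02 ± 0.0605 (SE). Hoxa9 was the 1 gene of the list that was higher, at 0.71, and it is a gene of the MPP4 score. Coordinates on GRCm38 for genes that the account turns on are 3:29951296-30548008 for Mecom, 11:90336536-90390895 for Hlf, 17:51736187-51833290 for Satb1, 12:113418558-113422730 for Ighm and 7:128205435-128206387 for Cox6a2, each the span of the annotated gene.

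Surface markers that define the sorting gates of stem and progenitor cells split by class. All 13 were called, 6 higher and 7 lower in MPP4, against 25.8% of all genes called. Flt3, the receptor by which MPP4 are gated and a gene of the MPP4 score, stood at 89.7, 74.7 and 109.7 CPM in HSC and 399, 371 and 480.0 CPM in MPP4, a log2 fold change of 2.17. Cd48, the SLAM-family receptor that HSC lack at the protein level and which enters no score, stood at 43.99, 21.97 and 50.99 CPM in HSC and 151, 124 and 153 CPM in MPP4. It rose by 1.81 ± 0.0918 (SE, adjusted p = 1.71e-26), with every MPP4 value above every HSC value. Slamf1 (CD150), the SLAM marker of HSC and an HSC score gene, was counted 43, 17 and 20 times in HSC and 2, 1 and 3 times in MPP4.

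The remaining gate markers moved less. Cd34, a sialomucin gained as HSC become progenitors, was at 205, 208 and 177 CPM in HSC and 408, 451 and 283 CPM in MPP4, a rise of 0.93 ± 0.0596 (SE, adjusted p = 2.63e-21). Kit, the stem cell factor receptor on which the gate itself selects, was at 125, 132 and 147 CPM in HSC and 92.8, 89.5 and 89.6 CPM in MPP4, a fall with a log2 fold change of -0.55 ± 0.0740 (SE, adjusted p = 5.44e-09). Ly6a (Sca1), the other receptor of the gate, was at 154, 343 and 178 CPM in HSC and 131, 264 and 155 CPM in MPP4. The Ly6a ranges overlapped between the groups, while MPP4 was lower within each library and the log2 fold change was -0.27 ± 0.0609 (SE, adjusted p = 4.06e-04). Cd27, a TNF receptor family member, rose by 0.56 on the log2 scale. Cd9, Cd63 and Itga2b (CD41) were at log2 fold changes of -1.33, -1.13 and -1.40. Kit and Hlf are cases where the cluster mattered, since within cluster 0 alone Kit was at 0.12 (adjusted p = 0.498) and Hlf at 0.07 (adjusted p = 0.656). In cluster 1 alone both kept a negative sign but were not called, Kit at -0.43 (adjusted p = 0.101) and Hlf at -0.32 (adjusted p = 0.120).

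**Figure D3:**
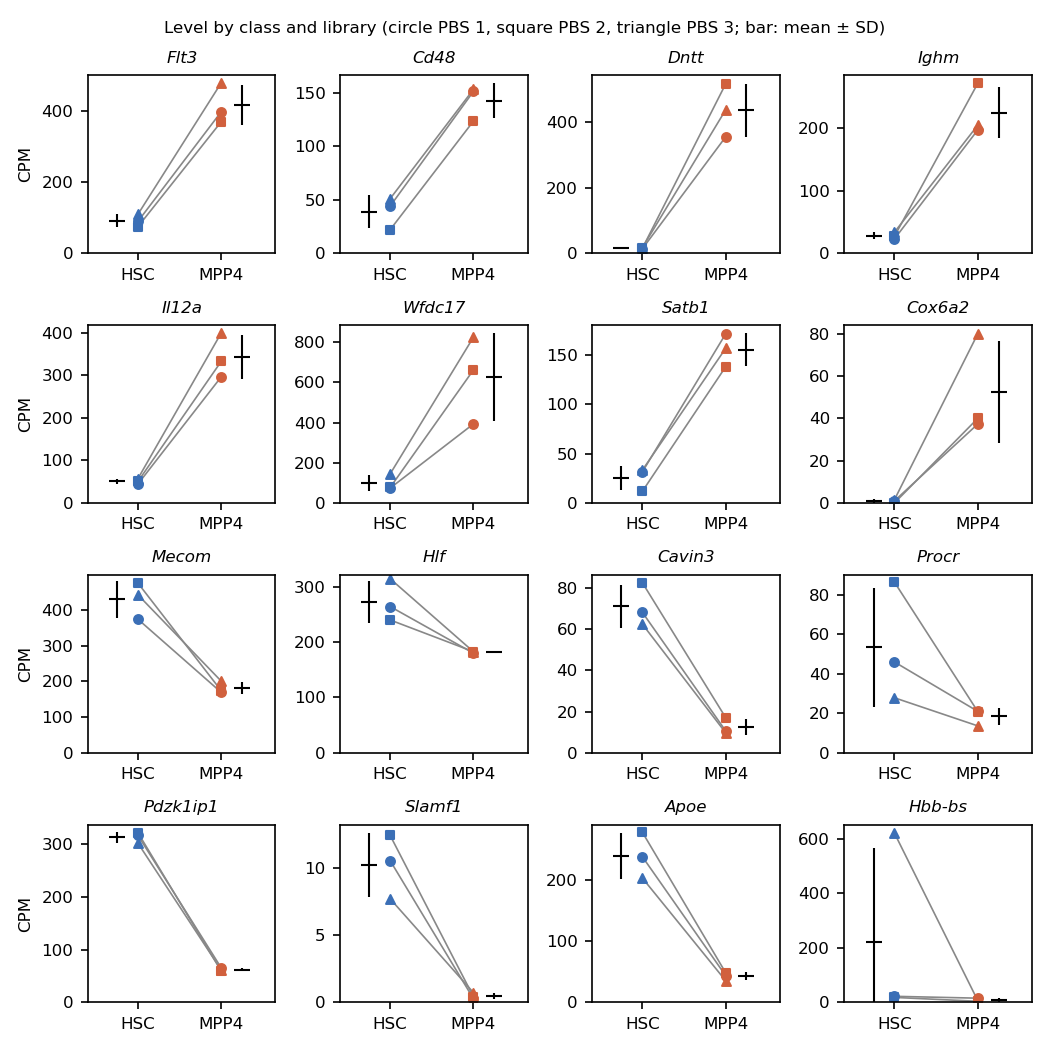
CPM (vertical axes, from 0, each gene on its own scale) of 16 genes in the HSC and MPP4 sums, with lines joining the sums of the same PBS library and black bars for the mean ± SD of 3 libraries (lower ends stop at 0). Lines rise in every library for the genes from Flt3 to Cox6a2 and fall in every library from Mecom to Hbb-bs, where 1 PBS 3 value of 620.3 CPM stands far above the rest.

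Lymphoid priming genes rose as a group. Of the 35 listed, 26 passed the count filter, 24 rose, 0 fell and 2 were not called, with a median of 1.60. Among the 21 outside the scores, 19 rose and 0 fell, with a median of 1.40. Counts of genes that pass the filter favour those with a high level on either side, and 9 listed genes did not pass, among them Rag1, Pax5, Cd79a and Igll1. Dntt, the terminal transferase that adds bases at V(D)J joints and a gene of the MPP4 score, went from 13.3, 14.6 and 16.6 CPM in HSC to 356, 518 and 439 CPM in MPP4, a log2 fold change of 4.81. Ighm, the immunoglobulin mu constant region, which is transcribed from the unrearranged locus in early lymphoid progenitors, went from 22.9, 27.1 and 33.6 to 197, 271 and 205 CPM. Its log2 fold change was 2.97 ± 0.0924 (SE, adjusted p = 3.18e-38), and no score uses it. Satb1, a chromatin organizer that promotes lymphoid fate, went from 31.5, 11.7 and 33.2 to 172, 138 and 157 CPM, a rise of 2.50 ± 0.101 (SE, adjusted p = 8.95e-32). In each of these genes the lowest MPP4 value was several times the highest HSC value.

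Some lymphoid genes were close to absent from HSC. Il7r, the interleukin-7 receptor chain required for lymphocyte development, had 0 UMIs in all 3 HSC sums and 143, 35 and 136 UMIs in the MPP4 sums. Against a floor of 3 counts over the HSC group, it was at least 58.01-fold higher in MPP4, which covers counting error only. Rag2, a subunit of the V(D)J recombinase, had 1 UMI in HSC and 119 in MPP4, a ratio of 66.0 with a 95% counting interval of 11.6 to 2627. Ebf1, a B lineage transcription factor, had 3 UMIs in HSC and 133 in MPP4, a ratio of 24.6 with an interval of 8.23 to 120.7. The list's median was the same, 1.60, with Il7r set at its bound.

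At higher levels, Wfdc17, a small secreted WAP-domain protein, lay at 73.7, 76.9 and 144 CPM in HSC and 394, 663 and 826 CPM in MPP4. PBS 3 was the highest library on both sides, and the rise was 2.60 ± 0.0669 (SE, adjusted p = 9.00e-43). Plac8 and Cd52, which are abundant in lymphoid-primed progenitors, rose by 1.67 and 1.53 on the log2 scale, and Ccr9, a thymus-homing chemokine receptor, by 2.77. Among other transcription factors of the list, Mef2c was at 0.89, Ikzf1 at 0.80, Sox4 at 0.59, Runx2 at 0.46 and Tcf3 at 0.32. Bcl11a, at 0.15 ± 0.0604 (SE), was not called. Blnk, an adaptor of the B cell receptor, was at 3.86.

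The largest rises were taken among called genes with a mean log2 CPM of at least 5 and ranges that did not overlap. They were Cox6a2, Dntt, Arpp21, Ighm, Clec12a, Ccl3, Il12a and Wfdc17. Cox6a2 and Arpp21 had at most 4 and 7 UMIs in an HSC sum, so their level came from MPP4. Neither was tested inside cluster 0 or 1 alone. Cox6a2, the heart and muscle isoform of a cytochrome c oxidase subunit, had 4, 0 and 4 UMIs in HSC and 278, 96 and 330 UMIs in MPP4. This was 0.983, 0 and 1.55 against 37.3, 39.97 and 79.9 CPM, a log2 fold change of 5.64 ± 0.243 (SE, adjusted p = 2.90e-30). The Cox6a2 UMIs lay in 137, 29 and 148 MPP4 cells, and the 10 cells with most held 24.1%, 68.75% and 23.9% of them. Arpp21, a cAMP-regulated phosphoprotein that binds RNA, went from 1.72, 2.20 and 2.70 to 47.1, 32.9 and 71.9 CPM, or 4.61 ± 0.204 (SE, adjusted p = 1.29e-29). Clec12a, an inhibitory C-type lectin receptor of myeloid and dendritic cells, went from 10.1, 4.39 and 9.27 to 61.8, 51.6 and 87.4 CPM, or 2.95 ± 0.141 (SE, adjusted p = 8.09e-28).

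Genes for secreted immune mediators were among these rises. Il12a, which encodes the p35 chain shared by interleukins 12 and 35, was at 44.5, 50.5 and 57.2 CPM in HSC and 296, 333 and 399 CPM in MPP4, a rise of 2.76 ± 0.0726 (SE, adjusted p = 2.69e-42). Ccl3, the chemokine MIP-1 alpha and a gene of the MPP4 score, was at 29.00, 19.04 and 16.6 CPM in HSC and 177, 133 and 154 CPM in MPP4, a log2 fold change of 2.81. Ccl3 UMIs were found in 649, 132 and 358 MPP4 cells, and the 10 cells with most held 7.21%, 27.8% and 9.12% of them.

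Of 21 myeloid priming genes listed, 13 passed the filter, 8 rose, 2 fell and 3 were not called, with a median of 0.47. Without the library block 4 were higher and 0 lower. The score genes Mpo (myeloperoxidase) and Ctsg (cathepsin G) were at 1.66 and 1.91. Outside the scores, Irf8, a transcription factor of monocyte and dendritic fate, went from 3.59 ± 0.848 to 17.5 ± 8.78 CPM (SD, n = 3), a rise of 2.45 ± 0.245 (SE, adjusted p = 5.03e-13). Ly86 (MD-1), a partner of the Toll-like receptor homolog RP105, rose by 3.14 ± 0.260 (SE, adjusted p = 2.47e-16). Cebpa, Gfi1, Csf3r and Spi1, regulators of granulocyte and monocyte formation, rose by 1.15, 0.77, 0.47 and 0.41 on the log2 scale. Mycn and Lyz2 fell, with log2 fold changes of -0.87 and -0.45.

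Megakaryocyte and platelet genes fell. Of 21 listed, 15 passed the filter, 13 fell, 0 rose and 2 were not called, with a median of -1.40, and 10 of the 12 outside the scores fell. Vwf, the platelet adhesion protein von Willebrand factor, was counted 30, 7 and 17 times in HSC and 3, 2 and 2 times in MPP4, and Cavin2, a coat protein of caveolae, 66, 12 and 21 and 2, 0 and 2 times. Rab27b, Itgb3 and Cd9 were at log2 fold changes of -2.98, -1.77 and -1.33. The transcription factors Nfe2 and Fli1 fell less, with log2 fold changes of -0.55 and -0.37. Selp and Clu were not called.

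The largest falls by the same rule were Hbb-bs, Dlg2, Cavin3, Apoe, Pcdh7, Plxdc2, Bex4 and Pdzk1ip1, of which Dlg2, Plxdc2 and Bex4 are HSC score genes and Apoe and Pcdh7 MPP2 score genes. Pdzk1ip1 (MAP17), a small membrane protein that enters no score, lay at 317, 321 and 302 CPM in HSC and 65.2, 59.1 and 61.3 CPM in MPP4. Both sides were tight across libraries, and the log2 fold change was -2.32 ± 0.0662 (SE, adjusted p = 2.84e-40). Cavin3, another coat protein of caveolae, was at 68.3, 82.7 and 62.6 CPM in HSC and 10.6, 17.1 and 9.69 CPM in MPP4, or -2.59 ± 0.122 (SE, adjusted p = 3.43e-28). Apoe, a lipid carrier, went from 241 ± 37.5 to 42.7 ± 6.63 CPM (SD, n = 3), and Dlg2, a membrane scaffold protein, from 85.4 ± 6.15 to 8.25 ± 0.482 CPM.

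The size of the hemoglobin difference rested largely on 1 cell. Hbb-bs, adult beta globin, had 91, 25 and 1606 UMIs in HSC and 116, 10 and 26 UMIs in MPP4, and PBS 3 HSC stood at 620.3 CPM against 4.16 to 22.4 CPM in the other 5 sums. In that sum, 1553 of the 1606 Hbb-bs UMIs (96.7%), 573 of 610 Hba-a1 UMIs and 524 of 542 Hba-a2 UMIs lay in the top cell for each gene. Over all libraries Hbb-bs was called at -3.92 ± 0.304 (SE, adjusted p = 1.46e-17), and without the cell richest in Hbb-bs at -0.99 (adjusted p = 7.12e-07). Without PBS 3 it was at -0.78 (adjusted p = 0.0341), and DESeq2 gave -2.78 (adjusted p = 0.235). Hba-a1 and Hba-a2, near-identical alpha globin copies whose reads cannot be told apart with certainty, were at -3.92 and -4.82 over all libraries, at -1.31 and -1.67 without that cell, and were not called without PBS 3, at -0.86 and -1.20. Apart from globins, Blvrb and Car2 of the erythroid list fell by 0.84 and 0.72 on the log2 scale, Tfrc was not called, and 11 of the 18 listed genes, Gata1 and Klf1 among them, did not pass the filter.

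Receptors for cytokines and growth factors divided between the classes. Of 28 listed, 24 were tested, 8 rose and 4 fell, with a median of 0.19. That is 50% called, against 25.8% of all genes, of which 13.3% rose and 12.5% fell. Beside Flt3 and Il7r, rises were seen for Il1r1 (2.06, a score gene), Il6ra (1.19), Ifnar2 (0.91), Tgfbr2 (0.54), Csf3r (0.47) and Ifngr1 (0.23). Among the 4 that fell were Tek, the angiopoietin receptor and an HSC score gene, counted at 13.3 ± 5.44 CPM in HSC and 1.495 ± 0.248 CPM in MPP4 (SD, n = 3), together with Kit and Igf1r. Il6st, Ifnar1, Tnfrsf1a, Il2rg and Tgfbr1 were measured and not called, at 0.12, 0.12, 0.15, -0.03 and 0.01.

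Adhesion and homing genes that anchor cells in the niche also divided, with 7 of 21 tested higher, 9 lower and a median of -0.12. Inside cluster 0 the median was 0.09, with 7 of 19 higher and 7 lower, and inside cluster 1 it was -0.21, with 0 of 15 higher and 5 lower. Esam, an endothelial and HSC adhesion molecule, was at 36.5 ± 13.2 CPM in HSC and 7.96 ± 3.32 CPM in MPP4 (SD, n = 3), a change of -2.15 ± 0.155 (SE, adjusted p = 6.08e-19). Jam2 and Jam3, of the same immunoglobulin family, were at -2.36 and -1.82, and the integrin chains Itga5 and Itga6 (a score gene) at -1.18 and -1.38. Angpt1, the ligand of Tek, was at -0.95, and Cxcr4, the receptor that retains cells in marrow, at -0.34. Among the 7 that rose were Itgal (LFA-1 alpha) at 2.16 ± 0.312 (SE, adjusted p = 4.50e-08), Pecam1 at 0.80, Selplg at 0.74 and Cd44 at 0.71.

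Regulators of G1 progression were balanced in number, with 5 of 19 tested higher, 5 lower and a median of 0.07. The share called was 52.6%, against 25.8% over all genes. Cdkn1c (p57), a CDK inhibitor of quiescent HSC, went from 23.1, 46.1 and 11.6 CPM in HSC to 5.10, 4.996 and 2.66 CPM in MPP4, a change of -2.44 ± 0.206 (SE, adjusted p = 6.95e-16). Cdk6, a G1 kinase scarce in dormant HSC, went from 207, 127 and 223 to 351, 222 and 289 CPM. It was higher in MPP4 within each library, though the ranges overlapped across libraries, and the rise was 0.63 ± 0.0623 (SE, adjusted p = 3.44e-13). Cdk4, E2f4 and Myc rose by 0.37, 0.25 and 0.28 on the log2 scale, and Ccnd2, Ccnd3 and Rbl2 were at -0.32, -0.28 and -0.34. Cdkn1a (p21) rose by 1.79 ± 0.298 (SE, adjusted p = 1.31e-06), from 22, 4 and 1 to 126, 8 and 33 UMIs, and was not called without the library block (adjusted p = 0.180). Cdkn1b and Ccnd1, at -0.16 and -0.25, were not called.

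Since cells were chosen by phase, S and G2M genes describe only what remained after that choice. Of 37 S phase genes tested 11 were higher and 3 lower in MPP4, with a median of 0.17, and of 36 G2M genes 8 were higher and 2 lower, with a median of 0.18. The shares called, 37.8% and 27.8%, stand against 25.8% of all genes, and the G2M share is close to it. Nasp, Mcm5 and Mcm6 were at 0.58, 0.78 and 0.50. Ccnb2 was at 1.06 and Cenpf at 1.00, while Gas2l3 was at -1.41.

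Differences in genes of ribosome biogenesis and protein synthesis were small and depended on the setting. Of 32 MYC targets and ribosome biogenesis genes, all tested, 14 rose, 0 fell and 18 were not called, with a median of 0.20. Eif4a1, Dkc1, Nop56, Nolc1 and Ran rose by 0.43, 0.36, 0.31, 0.27 and 0.30 on the log2 scale. Of 81 ribosomal protein genes tested, 48 rose and 1 fell, with a median of 0.12, or 0.06 under plain library size. Ribosomal UMIs were 26.9%, 35.4% and 32.8% of a cell's total at the median in HSC and 27.6%, 35.4% and 34.3% in MPP4. Without the library block 0 genes of either list were called, and inside cluster 0 the ribosomal direction was the opposite, with 27 genes lower and 0 higher. The 1 ribosomal gene that fell over the 3 clusters was Rpl21, at -0.12 ± 0.0378 (SE, adjusted p = 0.00925), and counts of this family can be split among pseudogene copies.

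Mitochondrial genes of nuclear and mitochondrial origin were counted apart. Of 42 nuclear respiratory chain genes, 16 rose and 0 fell, with a median of 0.11, while without the library block none was called and inside cluster 0 1 was higher and 8 lower. Ndufa4, Cox5a, Atp5b and Cycs rose by 0.55, 0.50, 0.49 and 0.47 on the log2 scale. For Ndufa4 this was 1130.1, 952 and 1666 CPM in HSC and 1518, 1570.1 and 2436 CPM in MPP4, higher within each library while the ranges across libraries overlapped. Of 12 mitochondrially encoded genes tested, 0 rose and 2 fell, mt-Cytb at -0.17 and mt-Nd4 at -0.16. That is 16.7% of them, under the 25.8% called over all genes, and neither gene was called without the library block or in cluster 0 or 1 alone. Median mitochondrial UMIs per cell were 1.01%, 1.46% and 1.35% in HSC and 0.941%, 1.27% and 1.23% in MPP4. Glycolysis genes were balanced, with 4 of 19 higher and 4 lower and a median of -0.03, and 42.1% were called against 25.8% of all genes. Pgam1 and Pgk1 rose by 0.37 and 0.32 on the log2 scale, Slc2a3 (the glucose transporter GLUT3) and Aldoc were at -0.84 and -0.98, and Ldha and Aldoa were not called.

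**Figure D4:**
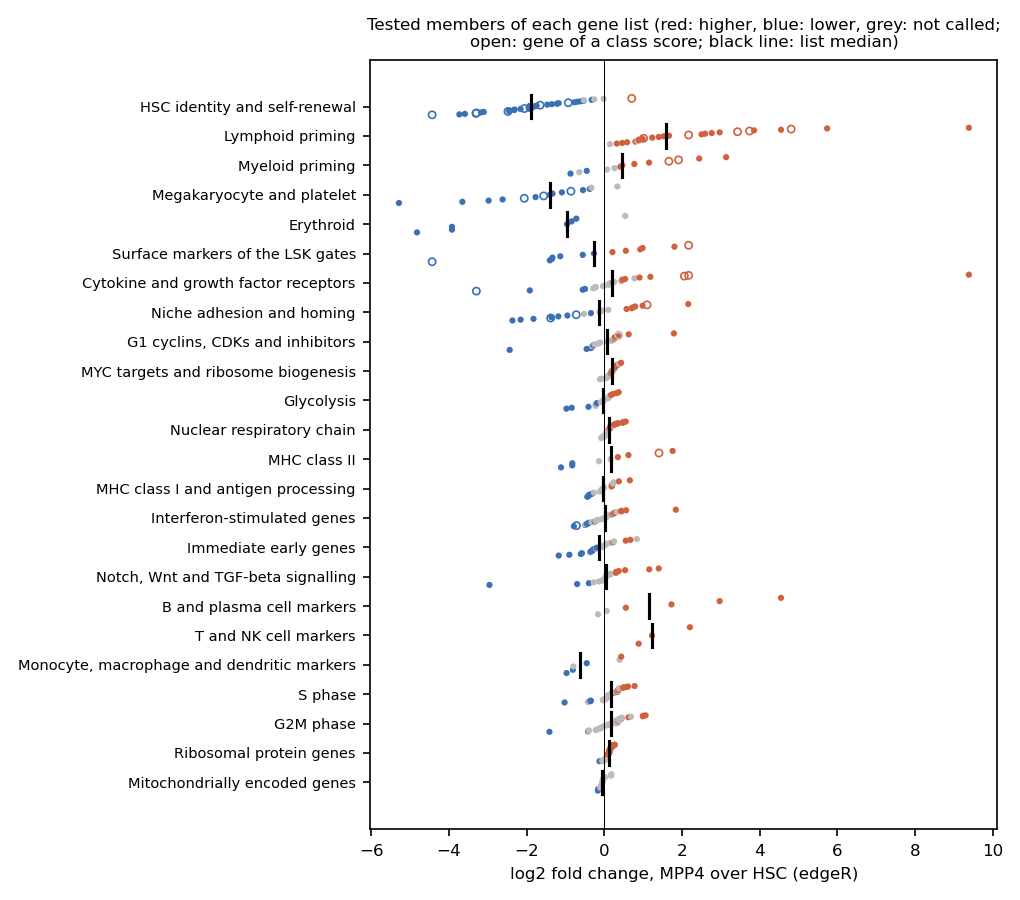
Log2 fold change of MPP4 over HSC (horizontal axis) for the tested members of 24 gene lists with at least 3 tested genes, in red where called higher, blue where called lower and grey where not called, with genes of a class score as open circles and the list median as a black line. Medians are furthest from 0 for HSC identity (-1.89), lymphoid priming (1.60) and megakaryocyte genes (-1.40).

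Antigen presentation genes did not move as a block. Of 9 tested MHC class II genes 4 rose and 3 fell, with a median of 0.16. H2-Ob, a chain of the DO modulator, went from 19.7, 16.1 and 21.2 to 64.9, 55.4 and 74.4 CPM, a rise of 1.76 ± 0.114 (SE, adjusted p = 3.01e-21), and H2-DMa rose by 0.62. The classical chain H2-Aa and the invariant chain Cd74 were at -1.12 ± 0.110 (SE, adjusted p = 2.70e-13) and -0.82 ± 0.0849 (SE, adjusted p = 1.34e-12), with H2-Eb1 at -0.82. Of 17 MHC class I and processing genes, 5 rose and 4 fell, with Tap2, a peptide transporter, at 0.66, the immunoproteasome subunit Psmb8 at 0.38 and H2-T22, one of several similar nonclassical genes, at -0.44. B2m, H2-D1 and H2-K1 were not called, at -0.03, -0.01 and -0.07.

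Interferon-stimulated genes were even, with 7 of 30 higher, 7 lower and a median of 0.01 that turned to -0.05 under plain library size. Ifi27l2a was at 16.7, 43.2 and 36.7 CPM in HSC and 65.6, 128 and 139 CPM in MPP4, a rise of 1.84 ± 0.101 (SE, adjusted p = 7.09e-25). Ifitm1, an antiviral membrane protein expressed by stem cells, was at 1034, 1516 and 1391 CPM in HSC and 598, 891 and 805 CPM in MPP4, or -0.78 ± 0.0422 (SE, adjusted p = 3.68e-25). Irf7, Bst2 and Ifi27 rose by 0.44, 0.44 and 0.56 on the log2 scale, and Ifitm3, Gbp7 and Zbp1 were at -0.42, -0.45 and -0.49. Isg15, Rsad2 and Usp18 were not called, at 0.06, -0.03 and 0.06.

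Immediate early genes, which respond within minutes to growth signals and to cell handling, were called lower more often than higher only with the library block. Of 22 tested, 9 fell and 3 rose with it and 0 were called without it, with a median of -0.13. Egr1 lay at 41.8, 85.7 and 39.01 CPM in HSC and 18.8, 39.1 and 16.2 CPM in MPP4, or -1.17 ± 0.114 (SE, adjusted p = 1.74e-13), and Fosb at -0.90 ± 0.0937 (SE, adjusted p = 2.02e-12). Egr1 was lower in MPP4 within each library, though the ranges overlapped across libraries. Nr4a2 and Dusp1 were at -0.60 and -0.58, and Btg2, Ier5 and Zfp36 rose by 0.67, 0.55 and 0.23 on the log2 scale. Jun and Junb were not called. Inside cluster 0, 5 of 20 were lower and 1 higher, with a median of -0.02, and in cluster 1 none of 19 was called, with a median of 0.02.

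For the Notch, Wnt and TGF-beta pathways, 6 of 20 tested genes rose and 3 fell, or 45% called against 25.8% of all genes. The median of 0.04 became -0.01 under plain library size. Notch1, the receptor that directs T cell fate, went from 6.39, 6.59 and 12.7 to 21.6, 18.7 and 25.7 CPM, a rise of 1.40 ± 0.179 (SE, adjusted p = 1.50e-09). Smad7, an inhibitor of TGF-beta signalling, went from 29.2, 32.2 and 29.4 to 65.99, 74.5 and 62.97 CPM, or 1.16 ± 0.103 (SE, adjusted p = 5.11e-15). Tgfbr3, the TGF-beta coreceptor betaglycan, was at 27.8, 38.8 and 22.02 CPM in HSC and 3.76, 2.91 and 3.63 CPM in MPP4, or -2.96 ± 0.201 (SE, adjusted p = 3.91e-20). Eng and Bmpr2 were at -0.70 and -0.40, whereas Tgfbr2 and Rbpj rose by 0.54 and 0.30.

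Markers of cells that the gate should exclude were counted as well. The 14 neutrophil markers together made 2.38 to 4.88 CPM (here of the plain total) in MPP4 and 4.11 to 9.33 CPM in HSC, none passed the count filter, and Chil3, Cd177 and Mmp8 were at 0. The 14 B and plasma cell markers summed to 131 to 275.0 CPM in HSC and 405 to 495 CPM in MPP4, and 4 of the 6 tested rose. Pax5 and Ms4a1 were at 0, while the rise lay in Ighm, Ebf1, Mzb1 and Cd79b. The 15 T and NK cell markers summed to 69.6 to 112.6 CPM in HSC and 170.0 to 258 CPM in MPP4, all 3 tested rose, and Cd3e, Cd3g, Cd8a, Cd2 and Gzma were at 0. Ccl5, a chemokine of T and NK cells, rose by 2.21 ± 0.182 (SE, adjusted p = 2.30e-16) with UMI counts of 60, 4 and 27 in HSC and 239, 24 and 457 in MPP4. In PBS 3, 252 of the 457 MPP4 UMIs of Ccl5 came from 1 cell, and without the library block it was not called (adjusted p = 0.0730).

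For monocytes, macrophages and dendritic cells, the 15 markers summed to 332 to 412 CPM in HSC and 353 to 418 CPM in MPP4, with 1 of 6 tested higher and 3 lower and Cd209a at 0. The 10 mast cell and basophil markers summed to 2.15 to 6.73 CPM in HSC and 9.91 to 12.1 CPM in MPP4, where Hdc was the only gene tested, at 3.15, and Fcer1a was at 0. The 14 endothelial and stromal markers summed to 65.1 to 79.6 CPM in HSC and 38.5 to 46.4 CPM in MPP4. Both tested genes, Ramp2 and the score gene Emcn, fell, and Cdh5, Stab2, Sparc and Col3a1 were at 0. What part such cells have in any gene result was not tested.

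MPP4 were then set against the other progenitor classes of the same phase and clusters in a fit of 4 classes. It covered 372 MPP2 and 500 MPP3 cells, but PBS 2 held only 15 and 8 of them, under the minimum of 20 cells applied to the other sums, and was kept in this fit. Of 9558 genes tested, 1150 (12%) differed between MPP4 and MPP2, 511 higher and 639 lower, and 257 (2.69%) between MPP4 and MPP3, 146 higher and 111 lower. These contrasts share the MPP4 sums with the main one, and their values are given side by side. Without the library block the counts were 313 and 19, without PBS 1 459 and 56, without PBS 2 1198 and 295, and without PBS 3 591 and 145.

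Ighm, Wfdc17 and Il12a had their highest mean in MPP4, with MPP3 next. Ighm averaged 27.98 ± 5.46, 33.7 ± 11.01, 72.5 ± 26.8 and 225 ± 42.3 CPM (SD, n = 3) in HSC, MPP2, MPP3 and MPP4, and MPP4 exceeded MPP2 by 2.75 ± 0.179 (SE, adjusted p = 4.58e-31) and MPP3 by 1.37 ± 0.134 (SE, adjusted p = 1.24e-16). Wfdc17 averaged 98.8 ± 40.1, 72.8 ± 23.2, 235 ± 170.4 and 629 ± 219.5 CPM in that order, and Il12a 50.96 ± 6.43, 54.5 ± 22.6, 131 ± 69.8 and 344 ± 52.6 CPM. For Il12a, MPP4 exceeded MPP3 by 1.28 ± 0.113 (SE, adjusted p = 1.16e-19). Satb1, Cox6a2, Arpp21, Notch1 and Smad7 were also called higher in MPP4 than in both other progenitor classes.

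Cd48 and Mecom differed in another way, with MPP4 close to another progenitor class. Cd48 averaged 115 ± 14.4, 142 ± 67.9 and 143 ± 16.01 CPM in MPP2, MPP3 and MPP4 against 39.1 ± 15.1 CPM in HSC, and MPP4 was not called different from MPP2, at 0.33 ± 0.133 (SE, adjusted p = 0.0882), or from MPP3, at -0.18 ± 0.115 (SE, adjusted p = 0.658). Mecom averaged 433 ± 53.5 CPM in HSC, 250.1 ± 14.1 in MPP2, 178 ± 25.6 in MPP3 and 181 ± 17.00 in MPP4. It was lower in MPP4 than in MPP2, at -0.47 ± 0.106 (SE, adjusted p = 3.63e-04), and the difference from MPP3 was -0.04 ± 0.108 (SE, adjusted p = 0.959). Pdzk1ip1 had means in HSC, MPP2, MPP3 and MPP4 of 315 ± 10.9, 252 ± 12.00, 120.0 ± 35.3 and 61.99 ± 2.79 CPM. Cd34 was higher in MPP4 than in MPP2, at 1.10 ± 0.111 (SE, adjusted p = 2.06e-16), while against MPP3 it was at 0.22 ± 0.0934 (SE, adjusted p = 0.311).

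**Figure D5:**
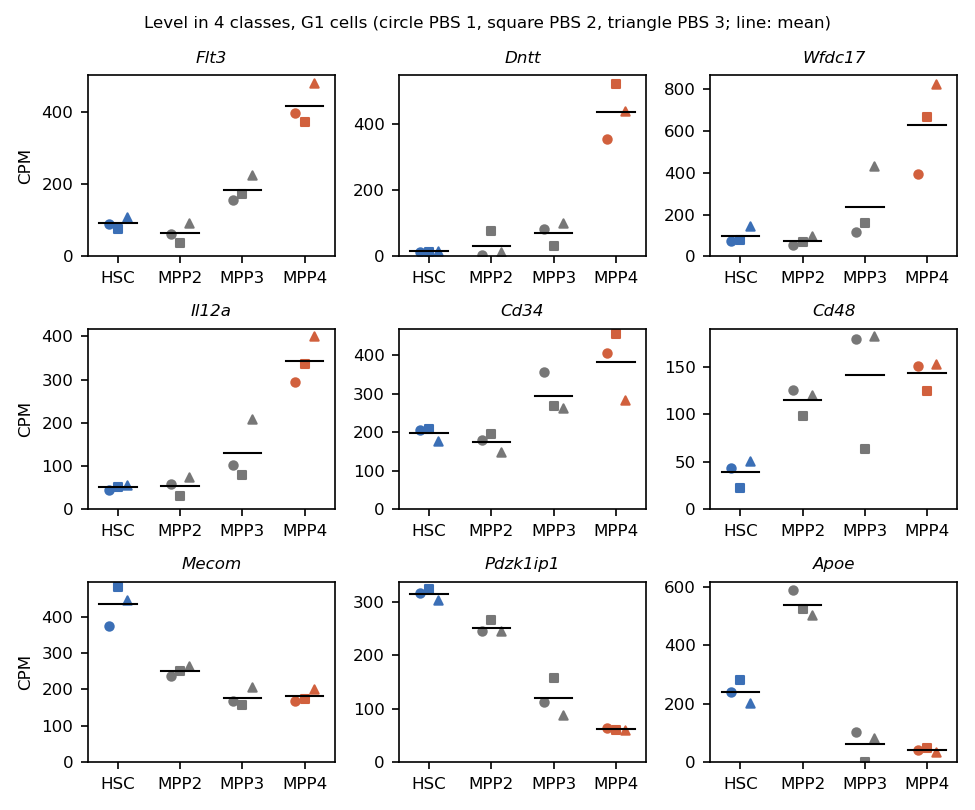
CPM (vertical axes, from 0) of 9 genes in the sums of HSC, MPP2, MPP3 and MPP4 cells in G1, with 1 symbol per PBS library and a line at the mean. MPP4 values lie above those of the other classes for Flt3, Dntt and Il12a, and Apoe, an MPP2 score gene, is highest in MPP2. PBS 2 has 15 MPP2 and 8 MPP3 cells.

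The contrast was also taken inside a cluster, since class and cluster moved together. In cluster 0 alone 1105 of 9147 genes were called (12.1%), and in cluster 1 alone 156 of 7441 (2.1%). Of the genes called over all 3 clusters, 387 had the opposite sign in cluster 0 and 227 in cluster 1, where not all of them were tested. Outside the scores, 83.6% of the 2341 such genes tested in cluster 0 kept their sign, and 88.5% of 1950 in cluster 1. Cluster 2 gave no value, because PBS 2 held 8 HSC cells there. Several genes outside the scores with large differences were called inside both clusters. Ighm was at 2.12 (adjusted p = 3.68e-21) in cluster 0 and 2.17 (adjusted p = 1.79e-09) in cluster 1. Satb1 was at 2.55 (adjusted p = 1.61e-27) and 1.36 (adjusted p = 5.59e-06), and Il12a at 1.38 (adjusted p = 6.66e-15) and 1.33 (adjusted p = 1.12e-07). Mecom was at -0.51 (adjusted p = 1.88e-07) and -0.50 (adjusted p = 0.00211), and Pdzk1ip1 at -1.48 (adjusted p = 5.89e-27) and -1.08 (adjusted p = 6.55e-07).

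By list, HSC identity, lymphoid and megakaryocyte genes kept the sign of their medians inside both clusters. The medians of the ribosomal protein, respiratory chain and MYC target lists turned negative in cluster 0, where 12.1% of all genes were called. HSC identity genes had a median of -1.09 in cluster 0, with 27 of 35 lower and 2 higher, and of -0.59 in cluster 1, with 9 of 20 lower and 1 higher. Lymphoid priming genes had medians of 1.03 and 0.46, with 15 of 18 and 10 of 17 higher and 0 lower. Megakaryocyte genes had medians of -0.98 and -0.57, with 6 of 11 and 2 of 7 lower and 0 higher. Myeloid priming genes had 3 of 8 higher and 1 lower in cluster 0 and 1 of 7 higher in cluster 1. For ribosomal protein genes, in contrast, 0 of 81 were higher and 27 lower in cluster 0, with a median of -0.14, and none was called in cluster 1, where the median was 0.03. Nuclear respiratory chain genes had 1 of 42 higher and 8 lower in cluster 0, with a median of -0.13, and 2 higher in cluster 1. MYC targets and ribosome biogenesis genes had 1 of 31 higher and 2 lower in cluster 0, with a median of -0.08, and 0 of 30 were called in cluster 1, where the median was 0.16. The medians of all genes were 0.00 and 0.01 in clusters 0 and 1. Cox5a, as an example, was at -0.10 (adjusted p = 0.495) in cluster 0 and 0.30 (adjusted p = 0.0311) in cluster 1, against 0.50 over the 3 clusters. The sums of a single cluster hold fewer UMIs than those of all 3. Without the library block 0 of 37 S phase genes were called, and 1 interferon-stimulated gene, 1 G1 regulator, 1 glycolysis gene and 1 MHC class I or processing gene. In cluster 1 none of these 5 lists held a called gene.

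The same contrast could be read in leukemia-bearing marrow in 1 library only. AML 3 held 961 MPP4 and 453 HSC cells under the same rule, with 4631391 and 1825039 UMIs, whereas AML 1 held 28 and 13 cells and AML 2, with no cells in the cell table, was not analysed here. Its values therefore stand without a test. Ighm was at 27.2 CPM in HSC and 214 CPM in MPP4, Satb1 at 39.4 CPM in HSC and 229 CPM in MPP4 and Il12a at 55.9 CPM in HSC and 411 CPM in MPP4. Mecom was at 487 CPM in HSC and 165 CPM in MPP4 and Pdzk1ip1 at 259 CPM in HSC and 40.5 CPM in MPP4. Hbb-bs, at 8.52 CPM in HSC and 3.60 CPM in MPP4, and Ccl5, at 72.4 CPM in HSC and 59.6 CPM in MPP4, lacked the large differences of the PBS 3 sums.

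Across genes, 2550 of the 2686 genes called outside the scores in PBS (94.9%) had the same sign in AML 3, and so did 627 of the 640 with a log2 change of at least 1. For the 8058 genes outside the scores that were not called in PBS, the share was 65.2%. The log2 differences of PBS and AML 3 had a Pearson r of 0.92 and a Spearman rho of 0.87 over 1368 called genes with mean log2 CPM of at least 5, a description across genes, which are not independent replicates. With the minimum lowered to 10 cells, AML 1 entered and 476 of 8654 genes were called, while 1119 had an unadjusted p under 0.05. Whether the difference between MPP4 and HSC depends on leukemia was not tested, since fewer than 2 AML libraries held 20 cells of each class.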

How the data were processed

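Single-cell RNA libraries of LSK cells were used, 3 of PBS mice for the comparison and 2 of AML mice for values. The deposited matrices hold raw UMI counts per gene and barcode, and per the labels the submitters' processing notes name Cell Ranger 7.0.1, R 4.2.2, Seurat 4.3.0 and the builds GRCm38 and mm10. In the deposited cell table the authors give module and cell cycle scores, class, phase, cluster and the percent of mitochondrial and ribosomal UMIs per cell, and its UMI and gene totals equalled the matrices in 16822 of 16822 cells. No source used here states how the authors treated doublets, and 11 columns were not used. Gene spans come from a GENCODE annotation on GRCm38 and were matched by Ensembl identifier.

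UMI counts were summed per library and class and tested with edgeR 4.0.16 in R 4.3.3, with TMM, filterByExpr by class, a library block and the quasi-likelihood F test, at a Benjamini-Hochberg adjusted p under 0.05. Positive log2 fold changes mean higher in MPP4, and the SE is the fold change divided by the root of F. With 2 residual degrees of freedom the spread was shared across genes, and the biological coefficient of variation was 3.36%. A minimum of 20 cells per sum held for the MPP4 and HSC sums, single clusters and AML libraries, but not for the MPP2 and MPP3 sums of PBS 2. Pairing comes from the shared library, whose sums deviated together (correlations of 0.822, 0.760 and 0.755 over 4374 genes). Score genes were recovered by ridge regression over genes seen in at least 1% of cells, which 103 tested genes, 69 of them called, did not reach. The edgeR step was tested on simulated data. Alternatives were DESeq2 1.42.0, limma 3.58.1 with voom, other scalings, no count filter, no block, libraries left out, and other cell choices, among them the top 5% of scrublet doublet scores (scanpy 1.11.5) left out. Scrublet itself called 0, 4 and 1 cells, and whether it failed or few doublets remained among these cells was not tested.

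Members and lists were chosen with earlier results of these data known. The naming rule took the 8 largest rises and falls among genes called, with mean log2 CPM of at least 5 and ranges that did not overlap, 14 defining genes, and in each list up to 2 called genes each way. Other list members were named after their values were seen, and some genes that the rule takes are not reported here. Intervals and floors (3 counts) cover counting error only.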

Additional observations from a re-analysis of the deposited data

How the results depend on the processing

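Among 10957 genes, 2832 were called with the library as a block. Without the replicate block 777 were called, with DESeq2 1196, with cells thinned to 2000 UMIs 1840, in cluster 0 alone 1105 and in cluster 1 alone 156. Leaving out 1 library gave 1822 (without PBS 3) to 2748 calls. The other alternatives, limma-voom, other scalings, no filter, equal numbers of cells, a score margin of at least 0.05, all phases, doublet scores and the cell richest in Hbb-bs left out, gave 2476 to 3618. For MPP4 against MPP2, 1150 genes were called, 313 without the replicate block and 459 to 1198 with 1 library left out. For MPP4 against MPP3, 257 were called, 19 without the block and 56 to 295 with 1 library left out.

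Of 99 named genes with alternatives, 38 kept their direction and side of the threshold in all of them. Calls were lost with the sign kept for 42 genes without the block, 19 with DESeq2, 22 in cluster 0 alone and 37 in cluster 1 alone. The genes given next that turned in cluster 0 or 1 alone come on top, since they lost their call there too. In cluster 0 alone the sign turned for Kit (0.12), Hlf (0.0726), Dkc1 (-0.0200), Cox5a (-0.10), Psmb8 (-0.0208), Bst2 (-0.15), Rps27l (-0.16) and Rpl36al (-0.0318). In cluster 1 alone it turned for Cdkn2d (0.00873), H2-Aa (0.0118), Chaf1b (0.0148), Ier5 (-0.0717), Lck (-0.22), Ung (-0.0459) and Ccnb2 (-0.48), and over all phases for Clspn (0.34) and Tubb4b (0.13). The cause was not tested. Cluster 2 alone was not run, since PBS 2 held 8 HSC cells there. For genes with few UMIs, depth limits the size of the fold change.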

Other observations

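A further 11 called genes outside the text above had at most 3 UMIs in the sums of one class, and their ratios carry 95% counting intervals. Klrd1, which encodes the NK cell receptor CD94, had 0 UMIs in HSC and 92 in MPP4, at least 17.0-fold higher against a floor of 3 counts over the group. Gria2, a glutamate receptor subunit, had 0 and 71, at least 13.1-fold higher. Ctnnd2, a catenin of neurons, had 1 UMI in HSC and 106 in MPP4, a ratio of 58.8 (10.3 to 2342). Actn2, Cd300lb, Gm11342, Depp1, Fcrl1 and Icos each had 3 UMIs in HSC and 48 to 82 in MPP4, with ratios of 8.87 to 15.2. In the other direction, Tm4sf1 had 40 UMIs in HSC and 1 in MPP4, a ratio of 72.2 (12.2 to 2921) and Smtnl1 33 and 2, a ratio of 29.8 (7.61 to 256). These genes were chosen after their values were seen.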
